A study of Mus musculus with 3 samples.

Results

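The small leucine-rich proteoglycans are secreted matrix proteins, and 10 of their genes were followed by symbol through the cell populations of 3 droplet single-cell libraries of mouse long bone: *Dcn* (decorin), *Bgn* (biglycan), *Aspn* (asporin), *Fmod* (fibromodulin), *Lum* (lumican), *Prelp*, *Kera* (keratocan), *Omd* (osteomodulin), *Ogn* (osteoglycin, also called mimecan) and *Podn* (podocan). All 10 were found among the 55422 genes of the count matrices. *Dcn* and *Aspn* had been picked because they are among the genes most reduced in septoclasts against metaphyseal stroma, so the values in that comparison are given here as a description, and nothing is read from the counts past a threshold given with them.

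All mice were labelled as untreated C57BL/6 at postnatal week 3, and the methods of the study name males, for the metaphysis of the substrain C57BL/6J. Libraries metaphysis 1 and metaphysis 2 hold cells of dissected metaphyses, the bone region below the growth plate, after depletion of lineage-positive, CD45+ and CD117+ cells. Library Pdgfra-GFP holds GFP+ cells of long bone from mice in which the *Pdgfra* locus drives a nuclear H2B-GFP reporter, so it selects for one marker of stromal cells and has no replicate. These mice were heterozygous for the reporter knock-in, whereas the metaphyses came from wild-type mice. For Pdgfra-GFP the results of the study name metaphysis and epiphysis of femur and tibia, whereas its methods name the metaphysis. Differences between Pdgfra-GFP and the other libraries can thus also come with bone region or reporter genotype, which cannot be told apart from the cell selection. The number of mice behind each library is not given in the sources used here. Library is a block in the fit, which removes shifts shared by a whole library. The p-values rest on the spread of populations between libraries that is left, estimated over all populations together. The libraries held 25243314, 22082735 and 91747759 unique molecular identifiers (UMIs, 1 per captured mRNA molecule). Cell filters left 2382, 2004 and 11242 cells, with medians of 6257, 6426 and 5330 UMIs per cell. The libraries shared at most 10 cell barcodes in any pair.

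Cells were put in populations by marker lists that hold none of the 10 genes, and each is called "-like" because its name rests on markers alone. SC-like cells (septoclasts, perivascular stromal cells that resorb cartilage at the growth plate) numbered 11, 10 and 176 in metaphysis 1, metaphysis 2 and Pdgfra-GFP, the order used for all values below. Metaphyseal stromal (mpMSC-like) cells numbered 76, 61 and 1287, diaphyseal marrow stromal (dpMSC-like) cells 742, 688 and 4188, osteoblast-like (OB-like) cells 207, 181 and 1804, and chondrocyte-like cells 38, 37 and 1451. Mural-like cells numbered 18, 18 and 75, endothelial-like (EC-like) cells 1123, 890 and 304, and haematopoietic-like cells 82, 63 and 274. Superficial chondrocyte-like (256), *Efemp1* chondrocyte-like (31), fibroblast-like (149) and tendon-like (102) cells reached the minimum of 10 cells in Pdgfra-GFP alone. UMIs were summed per library and population, and levels are UMI counts scaled to the size of that sum (CPM, counts per 10 to the power 6 UMIs).

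The markers set limits on some populations. The summed SC markers reached 8520, 14797 and 18036 CPM in SC-like cells against 397, 357 and 296 CPM in mpMSC-like cells. Summed, the mpMSC markers were as high in SC-like cells (8788, 14089 and 11743 CPM) as in mpMSC-like cells (7876, 8161 and 7506 CPM), mostly through *Mmp13*. With the libraries pooled, *Mmp13* was at 11150 CPM in SC-like and 3402 CPM in mpMSC-like cells. The other mpMSC markers were lower in SC-like cells: *Postn* (129 against 668.5 CPM), *Wif1* (297.1 against 2244), *Limch1* (28.93 against 989.1), *Cthrc1* (68.1 against 232.7) and *Tnn* (0.6026 against 47.26). In mpMSC-like cells the late osteoblast markers *Dmp1*, *Mepe* and *Phex* summed to 503, 1070.3 and 79.8 CPM, with a median over cells of 0, against 241, 218 and 304 CPM in OB-like cells. With the libraries pooled, *Mepe* was at 56.42 CPM in mpMSC-like and 1.931 CPM in OB-like cells. *Dmp1* (112.1 against 215.6) and *Phex* (14.87 against 66.07) were lower in mpMSC-like cells. The part of these late markers in the comparisons with mpMSC-like cells was not tested. In tendon-like cells the fibroblast markers summed to 7657 CPM, beside 8040 CPM of the tendon markers. When cells were clustered instead, 17.3% of the cluster named for tendon was tendon-like by the gate. Chondrocyte markers summed to 31869 CPM in *Efemp1* chondrocyte-like cells, beside 4875 CPM of their own markers, and to 14743 beside 18467 CPM in superficial chondrocyte-like cells.

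Small leucine-rich proteoglycans have a core of leucine-rich repeats that binds collagen and sets the diameter and spacing of its fibrils. Decorin and biglycan carry chondroitin or dermatan sulfate chains, whereas fibromodulin, lumican, keratocan and osteomodulin can carry keratan sulfate, and asporin has an aspartate-rich stretch in place of the chains. Biglycan, decorin, osteomodulin and osteoglycin are matrix components of bone, fibromodulin and PRELP are abundant in cartilage, and keratocan is best known from the cornea.

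Several of these genes lie side by side. In Gencode M21 on GRCm38, *Ecm2*, *Aspn*, *Omd* and *Ogn* follow each other on the plus strand of chromosome 13 with gaps of 11.7, 14.9 and 15.2 kb. No other RefSeq protein-coding gene begins between the starts of these neighbours. Genes that begin outside and run across them were not looked for. *Aspn* (ENSMUSG00000021388) spans chr13:49544443-49567565, *Omd* (ENSMUSG00000048368) chr13:49582462-49592822 and *Ogn* (ENSMUSG00000021390) chr13:49608046-49624501. *Dcn* (ENSMUSG00000019929, chr10:97479609-97518143), *Lum* (ENSMUSG00000036446, chr10:97565128-97572703), *Kera* (ENSMUSG00000019932, chr10:97606879-97613692) and *Epyc* stand in the same way on the plus strand of chromosome 10, with gaps of 47.0, 34.2 and 30.4 kb. On chromosome 1, *Prelp* (ENSMUSG00000041577, chr1:133910304-133921414, minus strand) lies 116 kb from *Fmod* (ENSMUSG00000041559, chr1:134037254-134048277, plus strand). *Bgn* (ENSMUSG00000031375, chrX:73483602-73495933) and *Podn* (ENSMUSG00000028600, chr4:108014791-108096445) have no neighbour among the members.

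The promoter windows of the 3 neighbours on chromosome 13, whose levels were ordered differently over the populations, and of *Bgn*, which was measured in all of them, are shown from 250 bases before to 50 bases after the RefSeq start (GRCm38.p6, plus strand, 5′ to 3′). They cover chr13:49544193-49544492 (*Aspn*), chr13:49582212-49582511 (*Omd*), chr13:49607765-49608064 (*Ogn*) and chrX:73483351-73483650 (*Bgn*). Capitals mark matches on either strand to the TATA box TATAAA, the RUNX motif TGTGGT, the AP-1 motif TGANTCA and the CCAAT box.
Aspn: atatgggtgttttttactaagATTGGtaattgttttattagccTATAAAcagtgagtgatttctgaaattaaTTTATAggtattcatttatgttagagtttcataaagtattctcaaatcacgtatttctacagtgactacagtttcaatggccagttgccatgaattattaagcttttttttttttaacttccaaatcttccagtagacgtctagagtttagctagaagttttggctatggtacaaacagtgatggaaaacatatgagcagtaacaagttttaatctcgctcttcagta
Omd: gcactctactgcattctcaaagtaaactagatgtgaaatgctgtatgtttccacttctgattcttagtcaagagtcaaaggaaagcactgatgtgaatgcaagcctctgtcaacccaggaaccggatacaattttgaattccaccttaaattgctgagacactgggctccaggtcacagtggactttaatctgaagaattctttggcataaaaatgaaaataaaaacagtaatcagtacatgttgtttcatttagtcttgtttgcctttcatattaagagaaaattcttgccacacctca
Ogn: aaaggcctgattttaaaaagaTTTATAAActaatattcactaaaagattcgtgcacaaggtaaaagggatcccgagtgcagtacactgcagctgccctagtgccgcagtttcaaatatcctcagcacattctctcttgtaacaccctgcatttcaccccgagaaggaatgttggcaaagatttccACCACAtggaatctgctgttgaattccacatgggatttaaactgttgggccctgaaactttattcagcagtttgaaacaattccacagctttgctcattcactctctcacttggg
Bgn: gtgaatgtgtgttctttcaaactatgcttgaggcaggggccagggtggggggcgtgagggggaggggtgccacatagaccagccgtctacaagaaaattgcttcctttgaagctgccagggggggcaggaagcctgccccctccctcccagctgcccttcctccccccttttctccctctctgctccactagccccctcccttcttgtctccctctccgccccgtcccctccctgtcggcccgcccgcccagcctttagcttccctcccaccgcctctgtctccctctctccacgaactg

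Matches are matches of letters only, and their positions are counted from the start site. The *Aspn* window held 2 TATAAA matches, 1 on each strand, at -207 and -178, and 1 CCAAT match on the minus strand at -229. In the *Ogn* window 2 overlapping TATAAA matches on opposite strands, at -229 and -227, and 1 TGTGGT match at -65 were found. The *Omd* and *Bgn* windows held none of the 4 motifs. TATAAA occurs in 13.6%, TGTGGT in 16.8%, TGANTCA in 7.81% and CCAAT in 37.4% of all 32851 promoter windows of this table. Base composition was 31% G and C for *Aspn*, 37.7% for *Omd*, 42.3% for *Ogn* and 63.7% for *Bgn*. Windows were found for 8 of the 10 members, without *Dcn* and *Lum*, and TGANTCA was in none of them.

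*Dcn*, which encodes a proteoglycan that decorates collagen fibrils, was measured at 3307, 3843 and 5805 CPM in OB-like cells (mean 4319 ± 1315, SD, n = 3) and at 1513, 1854 and 4506 CPM in mpMSC-like cells (2624 ± 1638). OB-like cells were higher in each library, by ratios of 2.19, 2.07 and 1.29, although the ranges over libraries overlapped. In dpMSC-like cells *Dcn* was at 147, 156 and 923 CPM and in chondrocyte-like cells at 307, 262 and 1566 CPM. SC-like cells held 44.7, 33.2 and 146 CPM, from 5, 3 and 213 UMIs, which was 33.8, 55.8 and 30.8 times below mpMSC-like cells. In Pdgfra-GFP the highest levels were in tendon-like (14629 CPM), fibroblast-like (10894 CPM) and superficial chondrocyte-like cells (9310.0 CPM). *Dcn* was higher in Pdgfra-GFP than in both metaphyses in all 8 populations described here that the 3 libraries share.

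RNA that is free in the suspension can give UMIs in cells that do not express a gene, and it was read from barcodes with fewer than 100 UMIs. These held *Dcn* at 715, 825 and 3834 CPM, above the level in SC-like cells in each library. After every cell was thinned to 2000 UMIs, 11.2% of SC-like cells in Pdgfra-GFP had a *Dcn* UMI (95% exact interval 6.91 to 17.0; 39.2% without thinning, 7 cells left out) against 12.5% of EC-like cells (8.88 to 16.8; 28.0% without thinning). Their median depths were 8251.5 and 4641 UMIs. The CPM of the summed UMIs was higher in SC-like cells (146) than in EC-like cells (96.9), so no order was read from these shares, and the part of free RNA was not tested. In the metaphyses 0 of 11 SC-like cells (0 to 28.5%) and 10% of 10 cells (0.253 to 44.5%) held a UMI, and these few cells leave a wide range. Thinned shares in mpMSC-like cells were 55.3%, 47.5% and 83.0%, and in OB-like cells 86.5%, 89.5% and 94.9%. In dpMSC-like cells the thinned shares of 18.7%, 19.8% and 62.8% stood above those of EC-like cells in every library (1.42%, 1.35% and 12.5%), as did those of chondrocyte-like cells (26.3%, 21.6% and 69.9%), although the CPM of both populations lay below the near-empty barcodes.

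*Bgn*, whose product is a chondroitin sulfate proteoglycan of bone and cartilage matrix, was measured in every stromal population, and its level in SC-like cells was near that in mpMSC-like cells. It was at 1359, 996 and 1497 CPM in SC-like cells (1284 ± 259, SD, n = 3) and at 1249, 1387 and 1942 CPM in mpMSC-like cells (1526 ± 367). SC-like cells were higher in metaphysis 1, by a ratio of 1.09, and lower in the others, at 0.718 and 0.771 of the mpMSC-like level. In dpMSC-like cells *Bgn* was at 2343, 2376 and 3119 CPM, in OB-like cells at 2012, 1934 and 2399.6 CPM, and in chondrocyte-like cells at 1409.7, 1776 and 5203 CPM. EC-like cells, at 496, 476 and 575 CPM, did not overlap SC-like cells. After thinning, 90.9%, 90% and 84.6% of SC-like cells had a *Bgn* UMI, compared with 52.8%, 51.6% and 57.1% of EC-like and 6.1%, 9.5% and 20.97% of haematopoietic-like cells. Near-empty barcodes held *Bgn* at 1105, 1149 and 2319 CPM, above the SC-like level in metaphysis 2 and Pdgfra-GFP. Within Pdgfra-GFP, superficial chondrocyte-like cells held 4647 CPM and tendon-like cells 6039.6 CPM.

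*Aspn*, which encodes a collagen-binding inhibitor of transforming growth factor-β signalling, was concentrated in mural-like, fibroblast-like and mpMSC-like cells. Mural-like cells held 710.1, 1148 and 639 CPM (833 ± 276, SD, n = 3), above the 167, 75.4 and 372 CPM of mpMSC-like cells without overlap. After thinning, 77.8%, 83.3% and 56.2% of mural-like cells but 7.89%, 8.20% and 21.5% of mpMSC-like cells had an *Aspn* UMI, and 0%, 0.112% and 0.346% of EC-like cells did. OB-like and chondrocyte-like cells of both metaphyses held 0 UMIs, and dpMSC-like cells were at 1.37, 0.731 and 13.5 CPM. In SC-like cells the level was 62.6, 0 and 13.7 CPM. Near-empty barcodes held 12.1, 8.69 and 93.3 CPM, above dpMSC-like cells in each library and SC-like cells in metaphysis 2 and Pdgfra-GFP. The 7 UMIs of metaphysis 1 lay in 1 of 11 cells, and the 20 UMIs of Pdgfra-GFP gave a thinned share of 0.592%, near the share of EC-like cells. Fibroblast-like cells of Pdgfra-GFP reached 1341 CPM, tendon-like cells 197 CPM and superficial chondrocyte-like cells 103 CPM.

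*Fmod*, which encodes a keratan sulfate proteoglycan of cartilage and tendon, was highest in chondrocyte-like cells among the populations of all 3 libraries. Chondrocyte-like cells held 1133, 1597 and 2859 CPM (1863 ± 893, SD, n = 3), mpMSC-like cells 271, 216 and 327 CPM (271 ± 55.7) and OB-like cells 79.4, 88.8 and 109 CPM. None of these 3 ranges overlapped. SC-like cells held 17.9, 66.4 and 53.5 CPM, which was 15.2, 3.25 and 6.11 times below mpMSC-like cells, and dpMSC-like cells held 41.1, 33.6 and 57.4 CPM. *Fmod* in near-empty barcodes was at 77.8, 101.5 and 730.7 CPM, above SC-like and dpMSC-like cells in each library. These barcodes were also above OB-like cells in metaphysis 2 and Pdgfra-GFP, and above mpMSC-like cells in Pdgfra-GFP. The part of free RNA in the order below chondrocyte-like cells was not tested. In Pdgfra-GFP, tendon-like (3909.6 CPM), *Efemp1* chondrocyte-like (3863 CPM) and superficial chondrocyte-like cells (3675 CPM) were above the chondrocyte-like cells.

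*Lum*, a keratan sulfate proteoglycan gene next to *Dcn*, was at 1470.0, 1079 and 2689 CPM in mpMSC-like cells (1746 ± 839, SD, n = 3) and at 1130.1, 1279 and 1566 CPM in OB-like cells (1325 ± 222), with overlapping ranges. Chondrocyte-like cells (357, 305 and 252 CPM) and SC-like cells (250.3, 133 and 106 CPM) were below both, with SC-like cells the lower in each library. Their ranges over libraries nearly touched, at 252 and 250.3 CPM. The latter came from 28 UMIs in 18.2% of 11 cells, with a counting interval of 166 to 362 CPM. The mpMSC-like level was 5.87, 8.13 and 25.3 times that of SC-like cells. In dpMSC-like cells *Lum* was at 45.3, 24.9 and 236 CPM. Near-empty barcodes held 320, 376 and 1169 CPM, above SC-like and dpMSC-like cells in each library and chondrocyte-like cells in metaphysis 2 and Pdgfra-GFP. The neighbours *Dcn* and *Lum* were not kept in a fixed proportion: *Dcn* UMIs outnumbered *Lum* UMIs 1.03, 1.72 and 1.68 times in mpMSC-like cells and 2.93, 3.00 and 3.71 times in OB-like cells. In tendon-like cells that ratio was 29.3.

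*Prelp*, whose product links collagen to basement membranes, was high in cartilage and lower in marrow stroma. Chondrocyte-like cells held 918, 1139 and 597 CPM (885 ± 272, SD, n = 3) and dpMSC-like cells 149, 166 and 287 CPM (201 ± 75.5), without overlap. In mpMSC-like cells *Prelp* was at 0, 3.01 and 10.98 CPM, in OB-like cells at 1.14, 2.93 and 11.2 CPM and in SC-like cells at 0, 0 and 11.7 CPM. All of these lay below the 75.9, 83.2 and 192 CPM of the near-empty barcodes. EC-like cells held 33.1, 32.9 and 43.1 CPM (36.4 ± 5.85). In Pdgfra-GFP, tendon-like (833 CPM) and superficial chondrocyte-like cells (756 CPM) were above the chondrocyte-like cells, and fibroblast-like cells (451 CPM) above the dpMSC-like cells.

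*Kera*, a keratan sulfate proteoglycan gene, had no UMI in any population of either metaphysis. In Pdgfra-GFP tendon-like cells held 891 CPM, from 722 UMIs, whereas fibroblast-like cells held 64.4 CPM and superficial chondrocyte-like cells 42.4 CPM. Among the other populations named above the highest level was the 3.86 CPM of *Efemp1* chondrocyte-like cells, from 1 UMI. With 1 library and 102 tendon-like cells these levels have no replicate check.

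*Omd*, which encodes a keratan sulfate proteoglycan first known from bone, was at 223, 347 and 493 CPM in mpMSC-like cells (354 ± 135, SD, n = 3) and at 140.3, 160.4 and 156 CPM in OB-like cells (152 ± 10.5). The mpMSC-like level was higher in each library, by ratios of 1.59, 2.16 and 3.17. SC-like cells held 53.6, 33.2 and 56.3 CPM and dpMSC-like cells 18.1, 18.0 and 48.0 CPM. Chondrocyte-like cells were split by library, with 17.1 and 5.37 CPM in the metaphyses and 676 CPM in Pdgfra-GFP. In that library *Efemp1* chondrocyte-like cells held 1321 CPM and superficial chondrocyte-like cells 27.0 CPM.

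*Ogn*, whose product is a small proteoglycan of bone matrix, was highest in dpMSC-like cells at 386, 442 and 362 CPM (397 ± 41.2, SD, n = 3), with mpMSC-like cells next at 198, 277 and 315 CPM (264 ± 59.5) and no overlap. SC-like cells held 53.6, 44.3 and 48.0 CPM (48.6 ± 4.72), which was 3.70, 6.27 and 6.56 times below mpMSC-like cells. The level in metaphysis 1 rests on 6 UMIs, with a counting interval of 19.7 to 117 CPM that is far wider than this SD. OB-like cells held 6.87, 17.8 and 12.1 CPM and chondrocyte-like cells 22.2, 29.6 and 32.5 CPM. The neighbours *Omd* and *Ogn* thus stood in opposite proportion in osteoblasts and marrow stroma. *Omd* UMIs outnumbered *Ogn* UMIs 20.4, 9 and 12.9 times in OB-like cells, and *Ogn* UMIs outnumbered *Omd* UMIs 21.4, 24.5 and 7.55 times in dpMSC-like cells. In mpMSC-like cells *Omd* exceeded *Ogn* by 1.12, 1.25 and 1.57 times. The low sides of the OB-like and dpMSC-like ratios lay below the near-empty barcodes, which held *Ogn* at 92.7, 99.7 and 114 CPM and *Omd* at 67.1, 64.0 and 330.2 CPM. In Pdgfra-GFP the OB-like *Omd* level lay below them as well. So did both genes in SC-like cells of each library.

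*Podn*, which encodes a collagen-binding member of another class, was at 33.6, 38.5 and 42.1 CPM in dpMSC-like cells (38.1 ± 4.26, SD, n = 3). After thinning, 6.87%, 8.14% and 7.79% of these cells had a UMI, and of EC-like cells 0.0890% in metaphysis 1 and none in the others. In mpMSC-like cells it was at 0, 0 and 1.17 CPM, and SC-like cells held no UMI in any library. Fibroblast-like cells of Pdgfra-GFP held 36.3 CPM. The panels of levels by population show these orders for all members.

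**Figure D1:**
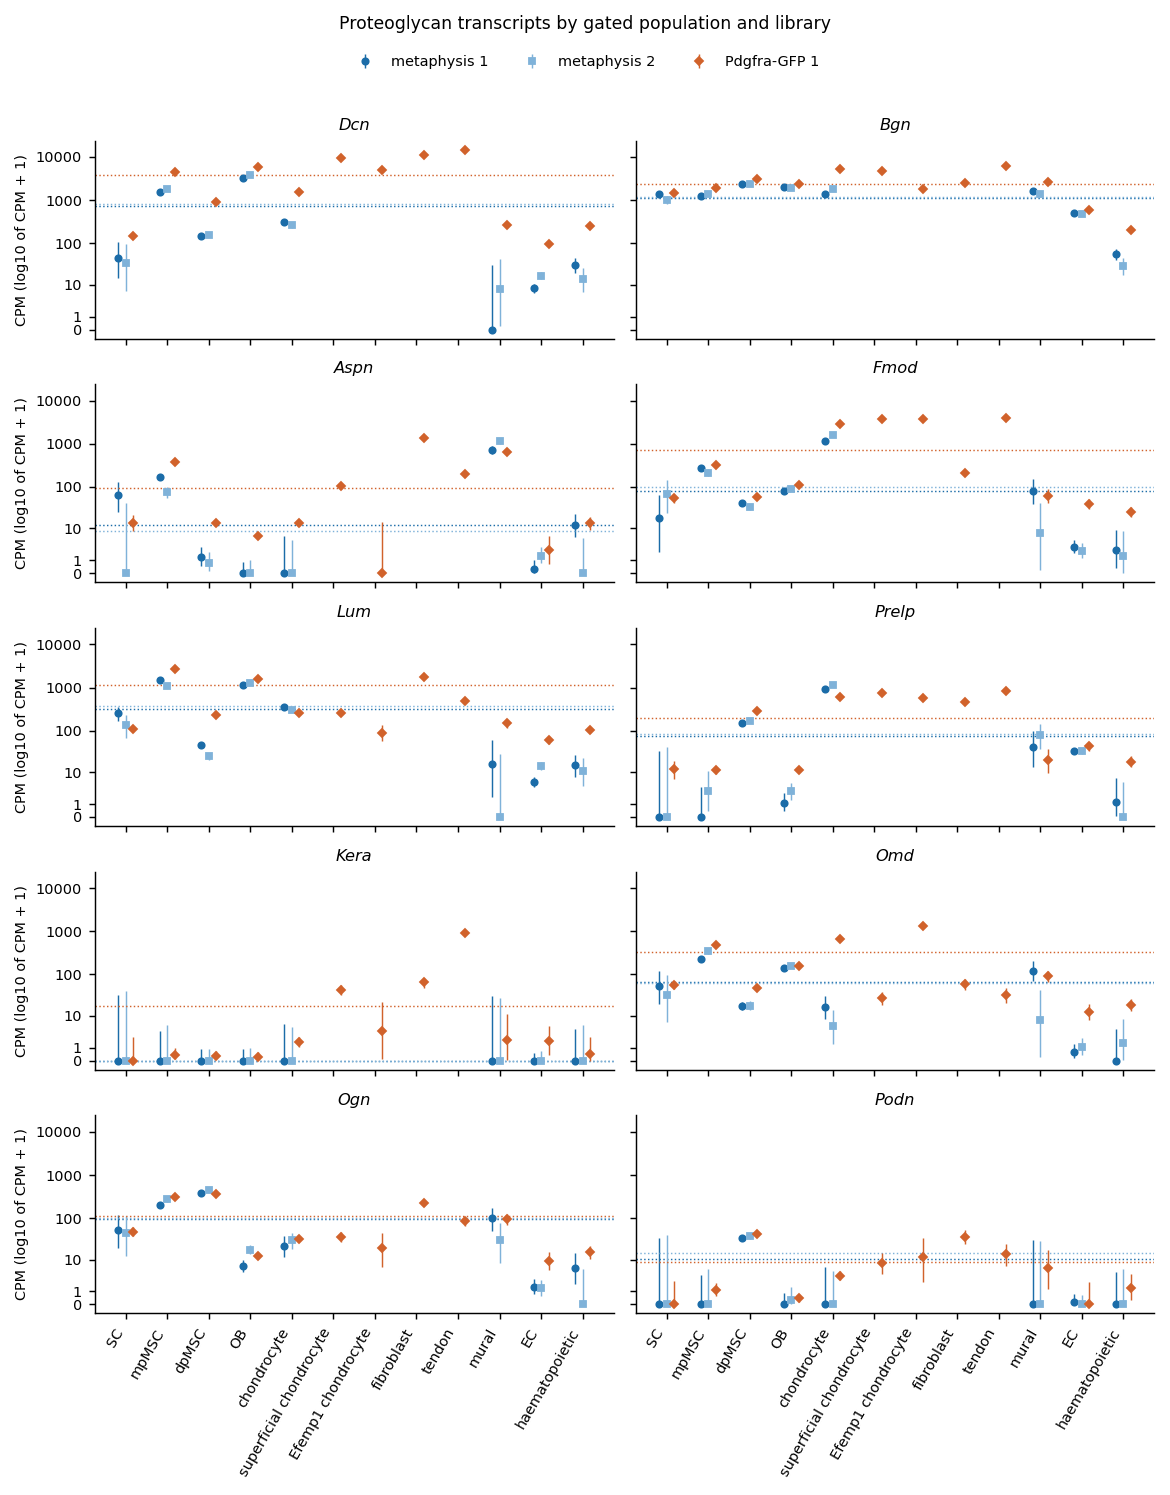
Levels of the 10 genes in each population, 1 panel per gene, on a log10(CPM + 1) axis, with 1 point per library, 95% exact Poisson bars for counting error and a dotted line per library at the level of its near-empty barcodes. *Kera* is high in tendon-like cells (891 CPM), *Podn* in dpMSC-like cells (33.6 to 42.1 CPM), and *Aspn* in mural-like cells (639 to 1148 CPM).

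Summed over the 10 genes, SC-like cells held 1842, 1306 and 1933 CPM, or 0.184%, 0.131% and 0.193% of their UMIs. In mpMSC-like cells the sum was 5092, 5238 and 10655 CPM (0.509%, 0.524% and 1.07%), and in OB-like cells 6677, 7326 and 10066 CPM (0.668%, 0.733% and 1.01%). Tendon-like cells had the highest sum, 27129 CPM or 2.71% of their UMIs, and EC-like cells were at 548, 547 and 842 CPM. In SC-like cells *Bgn* made up most of the sum.

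Septoclasts against metaphyseal stroma is the contrast on which the genes were chosen. In the fit over all populations, 6 of the 10 genes lay past the threshold and lower in SC-like cells and none higher, where 1.74% of all 13729 genes tested lay past it and lower (2.05% higher, 3.79% in either direction), and nothing is read from that count. With DESeq2 3 members lay past it, beside 491 of all 13729 genes in either direction. The fitted log2 differences were -5.84 for *Dcn*, -4.22 for *Aspn*, -3.71 for *Omd*, -3.64 for *Lum*, -3.28 for *Fmod* and -2.80 for *Ogn*. All but *Aspn* of these were lower in each library separately by at least 3.25 times. *Aspn* was 2.67 times lower in metaphysis 1 and 27.1 times lower in Pdgfra-GFP. In metaphysis 2, where 10 SC-like cells held 0 *Aspn* UMIs, the mpMSC-like level was 2.27 times a floor of 3 UMIs. Thinned shares with an *Aspn* UMI did not separate the 2 populations in the metaphyses. They were 9.09% and 0% in SC-like cells (upper limits 41.3% and 30.8%) and 7.89% and 8.20% in mpMSC-like cells. *Bgn*, at -0.45, and *Prelp*, at 0.20, lay on the other side of the threshold, and *Kera* and *Podn* had no UMI in SC-like cells. The plot of both populations beside the near-empty barcodes shows the levels.

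**Figure D2:**
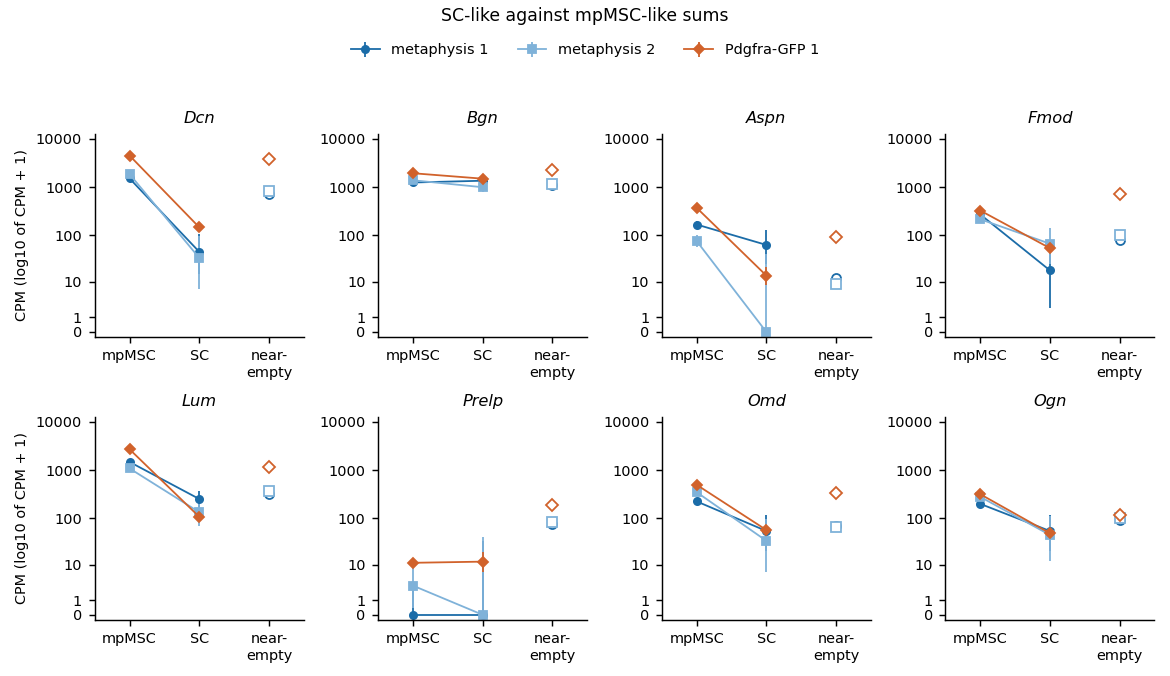
Levels (CPM, log scale) of 8 genes in mpMSC-like and SC-like cells and in near-empty barcodes (open points), 1 point per library. *Bgn* is at 996 to 1497 CPM in SC-like cells, near mpMSC-like cells, while *Dcn* in SC-like cells (33.2 to 146 CPM) lies below both the mpMSC-like cells and the near-empty barcodes.

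SC-like sums of the metaphyses rest on 11 and 10 cells. Within Pdgfra-GFP, with 176 SC-like cells, the mpMSC-like level was 30.8 times higher for *Dcn*, 27.1 times for *Aspn*, 25.3 times for *Lum*, 8.76 times for *Omd*, 6.56 times for *Ogn* and 6.11 times for *Fmod*. For each of these genes the SC-like level there lay below the near-empty barcodes, and the part of free RNA was not tested. The chondrocyte markers summed to 17.9, 730.4 and 462 CPM in SC-like cells and 107, 82.9 and 534 CPM in mpMSC-like cells, and the osteoblast markers to 1261, 2988 and 1879 CPM in SC-like cells and 3729, 3025 and 3976 CPM in mpMSC-like cells. The mural markers summed to 814, 88.5 and 396 CPM in SC-like cells, with medians over cells of 95.7, 0 and 79.6 CPM. In mpMSC-like cells they summed to 82.6, 155 and 177 CPM. The part of cells with these chondrocyte, osteoblast or mural markers in these differences was not tested.

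The 3 other contrasts were each tested with edgeR's quasi-likelihood test with library as a block and Benjamini-Hochberg adjustment over 13729 genes. The members were not picked on them, but members and gene lists were chosen with earlier results of these data known. The tests and counts are therefore not independent of these data. These contrasts share their mpMSC-like sums with the contrast on which *Dcn* and *Aspn* were picked. Falls of these 2 genes against the same sums are therefore not free of that choice, and the counts of members below include them. Osteoblasts against metaphyseal stroma compares 2 marker-gated populations and does not follow cells along a lineage. *Dcn* and *Bgn* rose and *Aspn* and *Ogn* fell in OB-like cells, and 6 members did not pass the test. In all, 28.7% of genes were called in this contrast (15% higher, 13.6% lower), so 4 of 10 members is not far from the background. *Ogn* fell by 3.72 on the log2 scale (SE 0.43, edgeR adjusted p = 4.78e-07), and mpMSC-like cells held 28.9, 15.6 and 26.1 times the OB-like level. *Aspn* fell by 5.66 (SE 0.79, edgeR adjusted p = 6.52e-06), with an mpMSC-like level at least 244 times higher in metaphysis 1, at least 94.4 times higher in metaphysis 2 and 59.7 times higher in Pdgfra-GFP. For the bounds the floor was 3 UMIs in the OB-like sum of that library.

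The rises were weaker. *Dcn* rose by 1.65 on the log2 scale (SE 0.57, edgeR adjusted p = 0.0317) and *Bgn* by 1.21 (SE 0.44, edgeR adjusted p = 0.04), and both were higher in 3 of 3 libraries. Both calls were lost without metaphysis 1 (edgeR adjusted p = 0.196 for *Dcn* and 0.205 for *Bgn*), without metaphysis 2 (0.0759 and 0.128), without the library block (0.542 and 0.298) and with a stricter gate (0.054 and 0.0507), and that of *Dcn* also with the DESeq2 Wald test (0.0803). Over all alternatives the adjusted p ran from 2.42e-12 to 0.542 for *Dcn* and from 1.05e-06 to 0.298 for *Bgn*. OB-like sums had normalization factors of 0.764, 0.744 and 0.567 against 1.17, 1.13 and 1.12 in mpMSC-like sums, so the fitted values exceed the CPM ratios of 2.19, 2.07 and 1.29 for *Dcn* and 1.61, 1.39 and 1.24 for *Bgn*. *Omd*, at -0.35 (SE 0.67), *Lum*, at 0.49 (SE 0.62), and *Fmod*, at -0.85 (SE 0.64), had edgeR adjusted p-values of 0.764, 0.622 and 0.36. Fitted with these 2 populations alone, *Lum* passed the test at 0.37 (edgeR adjusted p = 0.0367), while its CPM was lower in OB-like cells in metaphysis 1 and Pdgfra-GFP.

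In marrow stroma against metaphyseal stroma, *Prelp* and *Podn* rose and *Dcn*, *Aspn*, *Fmod*, *Lum* and *Omd* fell in dpMSC-like cells, while *Bgn*, *Ogn* and *Kera* did not pass. These 7 of 10 calls stand beside a background of 23.8% of genes called (12.2% higher, 11.6% lower). *Podn* rose by 5.66 on the log2 scale (SE 0.52, edgeR adjusted p = 3.41e-08), and the dpMSC-like level was at least 10.4, at least 8.51 and 36.0 times the mpMSC-like level. *Prelp* rose by 5.12 (SE 0.70, edgeR adjusted p = 4.13e-06), with ratios of at least 46.2 and then 55.0 and 26.1, where the ratio in metaphysis 2 rests on 2 UMIs in mpMSC-like cells. Both were called in all 15 alternatives. *Aspn* fell by 5.50 (SE 0.75, edgeR adjusted p = 4.64e-06), *Lum* by 4.66 (SE 0.73, edgeR adjusted p = 2.67e-05) and *Omd* by 3.96 (SE 0.75, edgeR adjusted p = 0.000281).

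*Dcn* fell by 3.32 in dpMSC-like cells (SE 0.61, edgeR adjusted p = 0.000185), and its mpMSC-like level was 10.3, 11.9 and 4.88 times higher. *Fmod* fell by 2.78 (SE 0.68, edgeR adjusted p = 0.00331), with ratios of 6.59, 6.41 and 5.69. Both of these calls were lost without the library block (edgeR adjusted p = 0.242 for *Dcn* and 0.119 for *Fmod*, the highest of their alternatives). *Ogn*, at 0.56 (SE 0.37, edgeR adjusted p = 0.314), and *Bgn*, at 0.69 (SE 0.43, edgeR adjusted p = 0.28), were higher in dpMSC-like cells in 3 of 3 libraries but did not pass. The median over the 10 members was -1.45 and that over all genes 0.07.

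In cartilage against metaphyseal stroma, *Prelp* and *Fmod* rose and *Dcn*, *Lum*, *Aspn* and *Ogn* fell in chondrocyte-like cells. *Kera* and *Podn* also passed the threshold, but on the UMIs of 1 library, at levels below its near-empty barcodes, and they are left out of this count of 6 of 10. With them, 4 of the 10 members were called higher and 4 lower. The background was 29.5% of genes called (16.1% higher, 13.4% lower), to which no such exclusion was applied. DESeq2 called 2 members higher and 3 lower, beside 3775 of 13729 genes called in either direction. *Prelp* rose by 7.92 on the log2 scale (SE 0.74, edgeR adjusted p = 9.36e-09) and *Fmod* by 2.99 (SE 0.68, edgeR adjusted p = 0.00129), and both were called in all 15 alternatives. *Fmod* was 4.18, 7.41 and 8.74 times the mpMSC-like level. *Ogn* fell by 2.89 (SE 0.45, edgeR adjusted p = 1.64e-05), with an even mpMSC-like excess of 8.94, 9.39 and 9.68 times. *Aspn* fell by 4.70 (SE 0.85, edgeR adjusted p = 0.000117).

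The falls of the chromosome 10 neighbours were less stable. *Dcn* fell by 1.99 (SE 0.58, edgeR adjusted p = 0.0108) and *Lum* by 1.88 (SE 0.65, edgeR adjusted p = 0.0316). Both calls were lost without metaphysis 1 (edgeR adjusted p = 0.101 and 0.116) or metaphysis 2 (0.0662 and 0.0511), with populations taken from clusters (0.0517 and 0.0871) and without the block, and that of *Lum* also with DESeq2 (0.0773). Over all alternatives the adjusted p of *Dcn* reached 0.565 and that of *Lum* 0.183. The calls of *Kera*, at 2.66, and *Podn*, at 2.10, rest on Pdgfra-GFP, since both metaphyses held 0 UMIs in both populations. There chondrocyte-like cells held 1.72 CPM of *Kera* (23 UMIs) and 3.67 CPM of *Podn* (49 UMIs), below the near-empty barcodes at 18.1 and 8.58 CPM, and neither was counted as risen. *Bgn*, at 1.02 (SE 0.44, edgeR adjusted p = 0.0854), was higher in 3 of 3 libraries and did not pass. *Omd*, at -1.13 (SE 0.73, edgeR adjusted p = 0.272), was 17.1 and 5.37 CPM against 223 and 347 CPM in the metaphyses, and 676 against 493 CPM in Pdgfra-GFP. Without Pdgfra-GFP its difference was -4.45 (edgeR adjusted p = 8.97e-09).

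**Figure D3:**
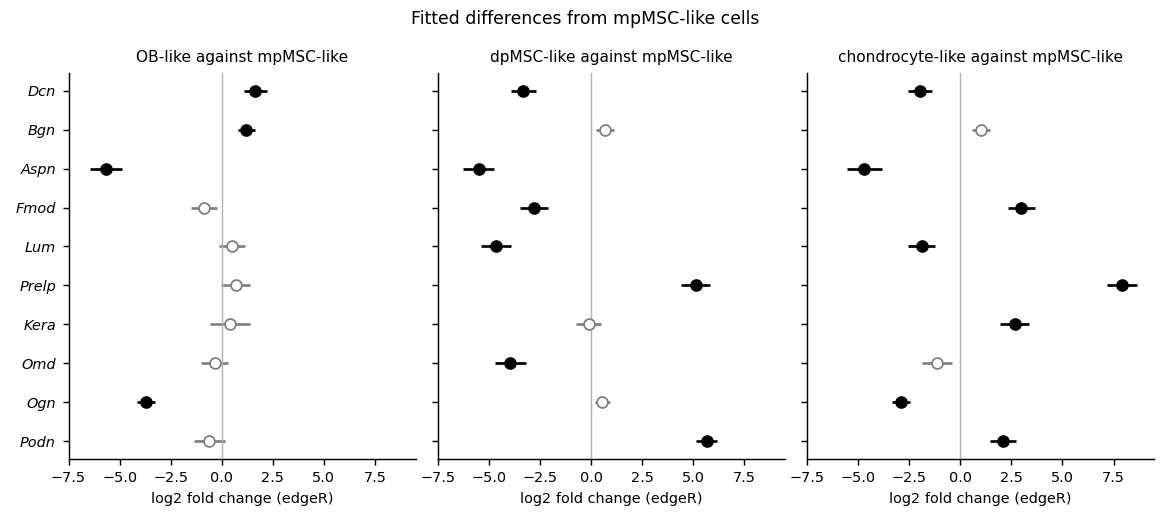
Fitted log2 fold changes with their standard errors for the 10 genes in OB-like, dpMSC-like and chondrocyte-like cells against mpMSC-like cells (filled, past the threshold of 0.05; open, not). *Aspn* is lower in all 3 contrasts, and *Prelp* is higher in dpMSC-like (5.12) and chondrocyte-like cells (7.92).

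Within OB-like cells, those with at least 2 of the 3 late markers (60, 38 and 292 cells) were set beside those with none (58, 63 and 869 cells), as values without a test. *Bgn* was higher in late cells, at 2356 against 1497, 2250.0 against 1733 and 2885 against 2161 CPM. *Fmod* was lower, at 42.4 against 97.0, 28.6 against 126 and 56.9 against 144 CPM. *Omd* was lower in metaphysis 2 (114 against 177 CPM) and Pdgfra-GFP (85.8 against 189 CPM), and in metaphysis 1 its counting intervals overlapped (123 against 154 CPM). *Dcn* did not keep a direction, with 3378 against 2614, 3796 against 3849 and 4961 against 6136 CPM. *Lum* was at 1057 against 1219.6, 1253 against 1267 and 1116 against 1696 CPM. Late cells were deeper, with median UMIs of 23829 against 19055.5, 25408.5 against 20378 and 13314 against 10435, and the part of depth was not tested.

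**Figure D4:**
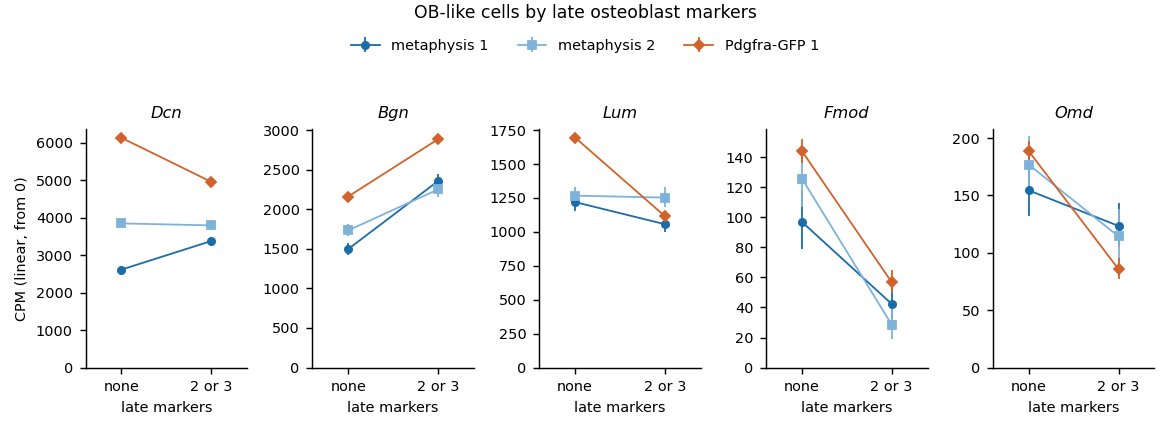
Levels (CPM, linear axes from 0) of 5 genes in OB-like cells with none or with 2 or 3 of the late markers *Dmp1*, *Mepe* and *Phex*, with lines joining the values of a library. *Bgn* is higher and *Fmod* lower in the late cells of each library.

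Across the 31 sums of a library and a population, the genes whose log2(CPM + 10) followed a member most closely are given as a description, because the sums share libraries and mpMSC-like, osteoblast-like or other cell classes. Pearson's r was 0.88 for *Dcn* with *Tmed3* and with *Tmem45a*, and 0.87 with *Nupr1*. *Bgn* went with *Trp53i13* (0.96), *Nenf* (0.94) and *Tceal8* (0.93). For *Aspn* the closest were *Col3a1* (0.85), *Acta2* (0.79) and *Tagln* (0.78), the last 2 being mural gating markers. *Fmod* went with *Ecrg4* (0.93), *Higd1a* (0.91) and *Sox9* (0.90), the last the master transcription factor of cartilage. *Lum* went with *Ptgis* (0.90), *Dcn* (0.84) and *Kazald1* (0.84), and *Ogn* with *Mdk* (0.91), *Islr* (0.91) and *Loxl1* (0.90). *Omd* had the loosest neighbours, *Wif1* (0.79, a gating marker of mpMSC-like cells), *Alpl* (0.75) and *Olfml3* (0.74). *Prelp* went with *P3h2* (0.88), *Vit* (0.87) and *Tpst1* (0.86), and *Kera* with *Slurp1* (0.96), *Angptl7* (0.94) and the tendon gating marker *Tnmd* (0.93). *Kera* had no UMI in the metaphyses, and in Pdgfra-GFP it was at 891 CPM in tendon-like cells and at most 64.4 CPM elsewhere. Its Pearson values therefore rest largely on the tendon-like sum of that library. By rank (Spearman's rho) they were 0.85 for *Slurp1*, 0.69 for *Angptl7* and 0.90 for *Tnmd*. Among pairs of members the highest Pearson's r was 0.84 for *Dcn* and *Lum*.

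Of the 7 other family genes, 5 were tested. In OB-like cells 1 rose and 1 fell, in dpMSC-like cells 0 passed (1 higher and 1 lower at an unadjusted p under 0.05, 0 with DESeq2), and in chondrocyte-like cells 3 rose and 1 fell. Over all genes 28.7%, 23.8% and 29.5% were called in these contrasts after adjustment, and the share at the unadjusted cutoff is not given here. *Podnl1*, a podocan-like gene, was the member of the wider family that was high in SC-like cells, at 519, 421 and 295 CPM against 159.8, 139 and 137 CPM in mpMSC-like cells. In OB-like cells it was at 8.47, 6.92 and 5.80 CPM and had fallen by 3.63 on the log2 scale (edgeR adjusted p = 3.06e-08). *Tsku* rose by 2.12 in OB-like cells (edgeR adjusted p = 0.00166). *Chad*, which encodes chondroadherin, was at 346, 990.0 and 4492 CPM in chondrocyte-like cells and *Epyc*, which encodes epiphycan, at 539, 583 and 239 CPM. They rose there by 7.84 (edgeR adjusted p = 3.98e-07) and 7.19 (edgeR adjusted p = 4.07e-09), and *Ecm2*, the neighbour of *Aspn*, rose by 2.57.

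The enzymes that build chondroitin and dermatan sulfate chains (20 genes, all tested) rose most widely in chondrocyte-like cells, where 14 rose, 3 fell and 3 did not pass (median log2 difference 1.18, against 0.04 over all genes), beside 16.1% of all genes called higher and 13.4% lower. The xylosyltransferase gene *Xylt1*, which starts the chain, rose by 5.14 there (edgeR adjusted p = 5.63e-11), the chain-initiating *Csgalnact1* by 5.73 (edgeR adjusted p = 4.86e-10), and the sulfotransferase genes *Chst3* by 6.66 and *Chst11* by 4.31. In OB-like cells 8 rose and 2 fell (median 0.61, against 0.01), beside 15% and 13.6% of all genes. *Chst11* rose by 1.73 (edgeR adjusted p = 3.2e-06), and those that fell, named after their values were seen, were *Xylt2*, by 0.96, and *Dse*, by 0.75. In dpMSC-like cells 4 rose, with *Chst15* at 2.53 (edgeR adjusted p = 1.43e-08), and 1 fell, *Ust*, by 2.41 (median 0.19, against 0.07), which is near the 12.2% and 11.6% of all genes. In SC-like against mpMSC-like cells 0 of the 20 lay past the edgeR threshold (median -0.25, against -0.08), 3 were lower at an unadjusted p under 0.05, and DESeq2 also gave 0. Over all genes 3.79% lay past the edgeR threshold, so 0 of 20 is near that background. For the 3 at an unadjusted p under 0.05 the share of all genes is not given here.

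Of the 7 keratan sulfate enzymes 6 were tested. In OB-like cells 1 rose and 3 fell (median -1.35, against 0.01), beside 28.7% of all genes called, and those that fell included the sulfotransferase genes *Chst5*, by 2.93, and *Chst2*, by 2.19 (edgeR adjusted p = 8.32e-06). In dpMSC-like cells 2 rose, *B3gnt2* by 2.62 and *B4galt4* by 1.59, and *Chst5* fell by 1.99 (median -0.30, against 0.07), beside 23.8% of all genes called. In chondrocyte-like cells *Chst1* rose by 4.55 and *Chst2* and *Chst5* fell (median -0.06, against 0.04), beside 29.5% of all genes called. In SC-like cells *Chst2* lay past the threshold and higher, at 1.43 (median 0.08), and the other 5 did not. Over all genes 3.79% lay past it.

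Among 14 genes of propeptide processing and collagen partners, 7 rose and 5 fell in OB-like cells (median 0.26, against 0.01), beside 15% of all genes called higher and 13.6% lower. *Col1a1*, the main collagen chain of bone, rose by 4.05 (edgeR adjusted p = 0.00324) and *Pcolce2*, an enhancer of procollagen cleavage, by 3.35. The 5 that fell, named after their values were seen, were *Col3a1*, *Col12a1* and the 3 collagen VI chain genes *Col6a1*, *Col6a2* and *Col6a3*, at -2.40 to -2.12. In dpMSC-like cells 5 fell and 0 rose (median -1.19, against 0.07), beside 11.6% and 12.2% of all genes, and also 0 rose at an unadjusted p under 0.05 and with DESeq2. *Col1a1* fell by 4.22 there and *Col6a3* fell by 4.20. In chondrocyte-like cells 7 fell (median -1.22, against 0.04), beside 13.4% of all genes, and *Pcolce2* rose by 8.15 (edgeR adjusted p = 5.85e-10). In SC-like cells 0 of the 14 lay past the edgeR threshold (median -1.14, against -0.08), and DESeq2 also gave 0. Over all genes 3.79% lay past the edgeR threshold, so 0 of 14 is near that background. At an unadjusted p under 0.05, 7 of the 14 were lower. The share of all genes at that cutoff is not given here, so these 7 have no background beside them. Of 8 cell surface partners, *Tlr4*, an innate immune receptor for biglycan, and *Egfr*, a receptor for decorin, fell in OB-like cells, by 1.91 and 2.17, and rose in dpMSC-like cells, by 0.84 and 1.79. The other 6 did not pass in either contrast, so 2 of 8 stand beside 28.7% and 23.8% of all genes called. In chondrocyte-like cells *Tlr4*, *Egfr* and the integrin gene *Itgb1* fell, by 2.74, 2.06 and 0.71, and 5 did not pass, beside 29.5% of all genes called. *Egfr* is a gating marker of SC-like cells, where it and *Itga2*, named after its values were seen, lay past the threshold and higher. Over all genes 2.05% lay past it and higher there.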

How the data were processed

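Droplet scRNA-seq was measured in 3 libraries of mice aged 3 weeks. Per the submitters' processing notes and the methods, fastp 0.20 was used for trimming and STARsolo (STAR 2.7.3a) for alignment to mm10, with Gencode M23 plus an H2B-GFP sequence as annotation. The authors deposited UMI counts without normalization, for every barcode. Chemistry is given as 10x Chromium V2/V3. Gene positions came from Gencode M21 and promoter windows from RefSeq, both on GRCm38.

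The 10 members and all gene and marker lists were chosen with earlier results of these data known. Cells were kept with at least 1500 genes (metaphysis) or 1000 genes (Pdgfra-GFP), at most 15% mitochondrial and 30% ribosomal UMIs. EmptyDrops, Monocle and the authors' clustering were not used here. Each cell took the population whose markers scored highest (each gene scaled at its 90th percentile) with at least 3 markers detected and a lead of 0.05 over the next, and 61, 39 and 965 cells took none. Of the mpMSC-like cells 15, 5 and 199, and of the SC-like cells 2, 1 and 20, had a lead under 0.10. A population gated on haemoglobin genes is not described. Scrublet (scanpy 1.11.5) called 25, 17 and 155 doublets, which were kept. Barcodes under 100 UMIs held 8.51%, 9.91% and 7.24% of all UMIs and served as the free RNA level.

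UMIs were summed over populations of at least 10 cells (31 sums) and fitted together with edgeR 4.0.16 in R 4.3.3 (filterByExpr, TMM, glmQLFit, library as a block, threshold 0.05 after Benjamini-Hochberg adjustment over 13729 genes). The block follows from populations of 1 library coming from 1 suspension. On simulated counts with 200 genes changed 4-fold, 200 were recovered in the OB-like contrast, 199 in the dpMSC-like, 198 in the chondrocyte-like and 186 in the SC-like contrast, of 12831, 12798, 12800 and 12832 genes. False calls numbered 2, 8, 10 and 8. The simulation had the same fixed spread for every gene, no shift between libraries, and changed only genes of at least 20 CPM. It therefore checks that the code runs correctly and does not measure power in these data. Intervals are exact at the 95% level and cover counting error only. A bound against 0 UMIs uses 3 UMIs per library. Named genes were the members, the other family genes, and of each pathway list at most 4 called genes with the largest change in the same direction in every library. For each member with a mean of at least 20 CPM the 3 most correlated genes were named. Alternatives were populations from clusters, a lead of 0.15, doublets or cycling cells removed, thinning to 2000 UMIs, 500 genes per cell, at least 20 cells, DESeq2 1.42.0 size factors and Wald test, no filter, no block, only 2 populations, and leaving out each library.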

Additional observations from a re-analysis of the deposited data

Results flagged for a closer look

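*Omd* moved in opposite directions in the metaphyseal and the *Pdgfra-GFP* libraries when chondrocyte-like cells were set against mpMSC-like cells. The levels were 17.1 against 223 CPM in metaphysis 1, 5.37 against 347 CPM in metaphysis 2 and 676 against 493 CPM in Pdgfra-GFP. The difference between the metaphyseal and the Pdgfra-GFP libraries was not tested. These libraries differ in cell selection and, per the results of the study, in bone region, and the part of either was not tested. *Efemp1* chondrocyte-like cells, which reached 10 cells in Pdgfra-GFP alone, held 1321 CPM.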

How the results depend on the processing

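Genes called numbered 3938 in OB-like, 3269 in dpMSC-like, 4053 in chondrocyte-like and 520 in SC-like against mpMSC-like cells. Without the library block these became 2000, 1872, 2688 and 183, and after thinning 2322, 1990, 2531 and 338. Leaving out 1 library at a time gave 2342 to 3112, 1859 to 3309, 2708 to 2945 and 185 to 258. Fitting only the 2 populations gave 2395 calls in chondrocyte-like cells. In SC-like cells 131 were called with populations from clusters, 881 without a filter on low counts and 310 with at least 20 cells per sum. The share of these SC-like calls that were higher was 54.0%, but 74.0% with clusters and 40.5% after thinning. The 10 members summed to 2364 CPM in the SC-like cluster, which was found in Pdgfra-GFP alone.

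In the OB-like, dpMSC-like and chondrocyte-like contrasts, values that turned sign belong to *Kera* and *Podn*. In OB-like cells *Kera* (0.41) became -0.42 with clusters, -2.39 after thinning and -1.19 with DESeq2, and *Podn* (-0.60) became 0.15 after thinning, and ran from -0.77 to 1.88 when 1 library was left out, the latter without Pdgfra-GFP. In dpMSC-like cells *Kera* (-0.12) became 0.21 with cycling cells removed. In chondrocyte-like cells *Podn* (2.10) ran from -0.033 to 2.06 when 1 library was left out, and the call was lost without Pdgfra-GFP. The causes were not tested. Of the fold changes of all 10 members over all alternatives, 7 turned sign as given above, 28 lost and 18 gained the threshold, and 521 counted as the same. Outside the SC-like contrast, the same means that direction and side of the threshold were kept. In the SC-like contrast it means a move by less than the standard error. There 14 values without a test moved by more, and signs of members not past the threshold were not checked. The block changed the calls named in the report. SC-like sums of 10 and 11 metaphyseal cells and 1 Pdgfra-GFP library limit every value for septoclasts.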
